A study of Mus musculus with 6 samples.

Results

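Ribosomal protein pseudogenes are copies of ribosomal protein genes, and 65 of them had measurable counts in mouse ovary. They were taken from the deposited gene counts as the genes whose symbol starts with Rpl or Rps and contains -ps, with at least 15 counts summed over the 6 libraries. Of 36727 genes in the table, 300 had such a symbol, 65 met the count threshold and 235 did not. Of those 235, 121 had 0 counts in every library. Members were thus chosen by their summed count over all libraries, and Rpl17-ps5 was selected on its counts in the 2 groups, being nearly absent from the high libraries. Its difference between the groups is therefore given as a description with no test. Just inside the threshold, Rps7-ps2, Rps27a-ps2, Rpl9-ps4 and Rps10-ps2 each had 15 counts. Just outside, Rpl23a-ps3 and Rpl17-ps7 each had 14.

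A ribosomal protein gene encodes 1 of the many proteins that build the small and large subunits of the cytosolic ribosome, the particle that translates mRNA. Its mRNA is usually among the most abundant of a cell. A processed pseudogene arises when such an mRNA is reverse transcribed and inserted elsewhere in the genome, so it lacks introns and starts out with the sequence of its parent's mRNA. A short read from a recent copy can therefore fit the copy and the parent equally well. The ovary holds follicles, luteal and stromal tissue, all of which make ribosomes.

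RNA came from ovarian tissue of F4 inbred Swiss albino females aged 135 to 140 days, sampled by estrous phase. The groups were 3 samples of high litter size (replicates 1, 3 and 4) and 3 of low litter size (replicates 1, 2 and 5). Litter size is the only difference the labels give, and polyadenylated RNA was selected for the libraries. No label ties the samples to separate animals; the p-values therefore reflect how much these 6 samples vary, and that variation may be technical. Totals ran from 17620903 to 24758222 counts per library. Levels are given as CPM, read counts scaled to a common library total after TMM normalization. Markers of ovarian cells varied widely within both groups: the summed level of 12 granulosa cell markers was 218 to 1080 CPM for high and 380 to 1104 CPM for low litter size, and that of 12 oocyte markers 2.91 to 95.6 and 4.64 to 70.4 CPM. High replicate 3 stood apart in 13 adipocyte markers, with 34740 CPM against 540 to 4704 CPM in the other 5 libraries. It was also highest in 7 erythroid markers, with 2365 CPM against 129 to 369 CPM in the other 5. In 9 smooth muscle markers it was lowest, with 3978 CPM against 6106 to 17510 CPM. The ranges of all 8 marker lists overlapped between the groups. In bulk tissue, fewer cells of a type and less RNA per cell cannot be told apart.

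Rpl17-ps5 is a copy of Rpl17, which encodes a protein of the large ribosomal subunit near the exit of the peptide tunnel. It is a single exon of 555 bases on chromosome 5 (GRCm38, 22612628 to 22613182, minus strand), inside an intron of the non-coding RNA gene 6030443J06Rik on the opposite strand. Against the Rpl17 coding sequence it had 2 base differences, at positions 183 and 294 counted from the first coding base, and its open frame had the full coding length. In the 2 stretches below, the capital letter marks the base that differs from Rpl17. Within the coding sequence, only reads over such a base can separate Rpl17-ps5 from its parent, which is why these stretches are shown. They are from the GENCODE M21 transcripts, 5′ to 3′ along the transcript, at chr5:22612970-22613030 and chr5:22612859-22612919 on the minus strand.
Rpl17-ps5 bases 153 to 213: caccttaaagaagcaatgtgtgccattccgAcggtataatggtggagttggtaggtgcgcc
Rpl17-ps5 bases 264 to 324: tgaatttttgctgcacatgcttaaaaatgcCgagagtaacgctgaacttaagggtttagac
The first stretch also occurs whole in Rpl17-ps8, and the second in Rpl17-ps4, Gm10362, Gm15497 and Gm46209. No 31-base word of Rpl17-ps5 was found in it alone, and 88.2% of its words also occur in Rpl17. A word of 31 bases is the default length by which kallisto, the authors' counting tool, assigns reads.

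Rpl17-ps5 had 2, 0 and 8 counts in high replicates 1, 3 and 4. In low replicates 1, 2 and 5 it had 369, 968 and 966 counts. On the CPM scale the high libraries lay at 0.102, 0 and 0.402, and the low libraries at 21.3, 51.6 and 37.7. All 3 low libraries were thus above all 3 high libraries. The high mean was 0.168 ± 0.209 CPM and the low mean 36.9 ± 15.2 CPM (SD, n = 3). From the 10 summed counts of the high and the 2303 of the low group, the low over high ratio was 207. It was scaled by the library totals after TMM normalization. Intervals and floors in this text cover counting error only, and not how reads were divided among similar genes. Without high replicate 4, which held 8 of the 10 high counts, the ratio was 664.

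The parent showed no such pattern. Rpl17 had 11473, 4624 and 7771 counts in the high group and 6060, 4748 and 12460 in the low group, so that the groups overlapped (log2 fold change high minus low 0.22, SE 0.37, edgeR quasi-likelihood adjusted p = 0.827). Its group means were 422 ± 151 CPM for high and 363 ± 117 CPM for low litter size (SD, n = 3). Of the counts of the pair, Rpl17-ps5 held 5.74% in low replicate 1 (95% Wilson interval 5.20 to 6.34%). The share was 16.9% in low replicate 2 (15.99 to 17.9%) and 7.20% in low replicate 5 (6.77 to 7.64%). In high replicate 1 it was 0.0174% (0.00478 to 0.0635%) and in high replicate 4 it was 0.103% (0.0521 to 0.203%). In high replicate 3 it was 0, which allows a share of up to 0.0649% at 3 counts. Adding the counts of the 5 Rpl17 pseudogenes to those of Rpl17 gave 588, 289 and 393 CPM for high against 372, 306 and 524 CPM for low litter size, which overlapped.

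The other members of the Rpl17 family, and the other genes with 1 of these stretches, had few counts. Rpl17-ps8, which shares the first stretch, had 12, 7 and 6 counts in the high and 6, 5 and 8 in the low libraries. Rpl17-ps4, which shares the second, had 3, 0 and 3 in the high and 2, 4 and 4 in the low libraries. Of those with neither stretch whole, Rpl17-ps9 had 11, 2 and 11 against 3, 7 and 9 counts, and Rpl17-ps10 had 2, 2 and 13 against 0, 0 and 8. All 4 overlapped between the groups. The remaining 3 genes hold the second stretch and are named after their values were seen. Gm10362 had 0, 0 and 1 counts in the high and 0, 3 and 2 in the low libraries, and the groups overlapped. Gm15497 had 9, 1 and 4 against 3, 4 and 6 counts, which overlapped too. Gm46209 had 0, 0 and 2 counts in the high and 6, 17 and 42 in the low libraries, without overlap.

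**Figure D1:**
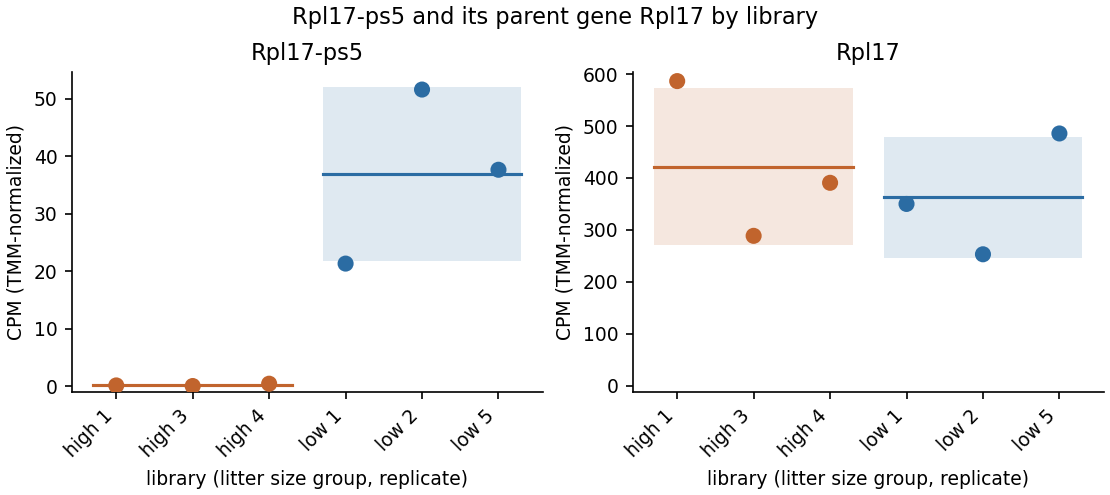
Level of Rpl17-ps5 and of its parent Rpl17 in CPM for each of the 6 libraries, with the mean of each group as a line and its SD (n = 3) as a band. The 3 low litter size libraries hold 21.3 to 51.6 CPM of Rpl17-ps5 and the 3 high libraries at most 0.402 CPM, whereas the Rpl17 levels overlap between the groups.

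Among the other 64 pseudogenes no call was made. The filter on low counts left 17 of them for testing, and 0 passed edgeR's quasi-likelihood test in either direction at an adjusted p of 0.05, where 0.00608% of the 16455 tested genes passed. At an unadjusted p under 0.05 it was also 0 of 17, against 14.4% of all tested genes (6.56% higher and 7.82% lower). DESeq2 and limma voom likewise called 0. With the 3 high libraries all above the 3 low ones there was 1 of 17, Rpl26-ps6, where 8.75% of tested genes had this order. With the 3 high libraries all below there was 1 of 17, Rpl10-ps3, where the background was 10.8%. The 17 comprised 9 positive and 8 negative log2 fold changes with a median of 0.03. Over all tested genes the median was 0.07 and 44.7% of the values were negative. These 17 are the ones with enough counts, not all members; the remaining 47 were not tested.

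The 33 parent genes of the 65 members were all tested, and 0 passed. They comprised 5 positive and 28 negative log2 fold changes with a median of -0.23. The median moved with single libraries: it was -0.53 without high replicate 1, -0.38 without low replicate 1, -0.09 without high replicate 3 and -0.03 without low replicate 5. The 79 genes of cytosolic ribosomal proteins gave 9 positive and 70 negative values with a median of -0.23 as well, and 0 passed either. At an unadjusted p under 0.05, 2 parents were lower in the high group, where 7.82% of tested genes were. These were Rps7 (log2 fold change -0.60) and Rps18 (-0.97), both of the small subunit. Rps7, Rpl30 (-0.68) and Rpl5 (-0.49) were the 3 of 33 parents whose high libraries all lay below the low ones, an order that 10.8% of all tested genes had. Of 9 listed paralogs of ribosomal protein genes, 7 were tested and 0 passed.

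**Figure D2:**
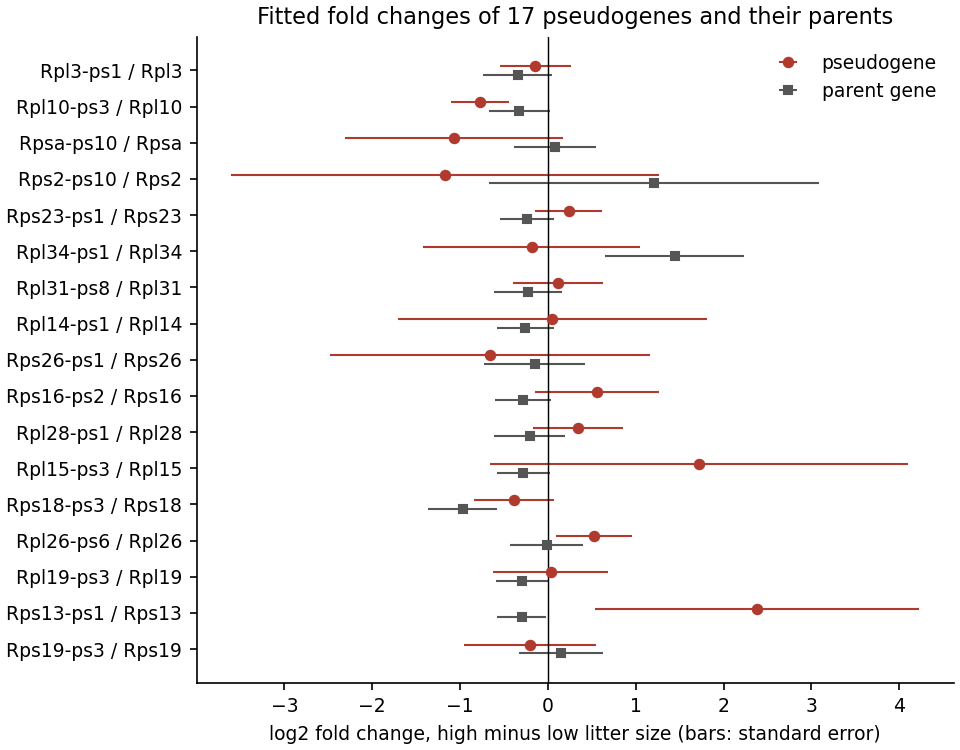
Log2 fold change, high minus low litter size, with its SE for the 17 tested pseudogenes other than Rpl17-ps5 and for the parent of each. The SE of the pseudogenes reaches 2.43 for Rps2-ps10, and no value passed the adjusted threshold.

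The members' counts were concentrated in few genes. All 65 together had 279135 counts, of which the 5 largest, Rpl3-ps1, Rpl10-ps3, Rpsa-ps10, Rps2-ps10 and Rps23-ps1, held 81.3%. The 15 members with more than 2000 counts held 98.8%, and the other 50 had 15 to 702 counts each. In 38 members at least 1 library had 0 counts. Summed over members, the high libraries had 58220, 15922 and 31425 counts and the low libraries 36531, 43556 and 93481. Relative to the members and their parents together, this was 16.9, 10.4 and 13.2% in the high and 16.6, 17.4 and 18.3% in the low libraries. The 95% Wilson interval was 16.8 to 17.1% in high replicate 1 and 16.5 to 16.8% in low replicate 1. These 2 libraries were close, with the high one above, so that the groups overlapped. High replicate 3 had the lowest share. It was also the library with the most adipocyte and erythroid marker RNA and the least smooth muscle marker RNA. The part of this tissue make-up in the share was not tested.

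Rpl3-ps1 had the highest summed count of all members. Rpl3, its parent, encodes a large subunit protein close to the peptidyl transferase centre. Rpl3-ps1 had 16069, 5477 and 13553 counts in the high and 8894, 11960 and 22647 in the low libraries. Rpl3 itself had only 2398, 727 and 1481 in the high and 1368, 1801 and 3394 in the low libraries. The pseudogene thus exceeded its parent in all 6 libraries, the only member to do so, while 6 members exceeded theirs in at least 1. It lies on chromosome X from 13202571 to 13203780 (GRCm38, plus strand, processed pseudogene) and differs from the Rpl3 coding sequence by 2 bases and a gap at the first base. Its longest open frame covers 15.3% of the parent's coding length. Of its 31-base words, 2.63% were found in it alone and 94.7% in Rpl3. The stretch around coding position 57 is shown because it holds 1 of the 2 base differences by which a read can separate 2 genes whose counts differ in every library (Rpl3-ps1, chrX:13202598-13202658, plus strand; Rpl3, coding bases 27 to 87, chromosome 15). The capital marks the base that differs.
Rpl3-ps1: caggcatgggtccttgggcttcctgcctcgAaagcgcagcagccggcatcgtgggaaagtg
Rpl3: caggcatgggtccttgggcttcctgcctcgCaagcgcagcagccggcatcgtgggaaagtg
Rpl3-ps1 averaged 615 ± 247 CPM for high and 678 ± 188 CPM for low litter size (SD, n = 3; log2 fold change -0.14, SE 0.41, edgeR adjusted p = 0.902). Its direction depended on single libraries, with 0.15 without high replicate 3 and 0.09 without low replicate 5.

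Rpl10-ps3 was the second largest member. Rpl10 encodes a large subunit protein that joins late in ribosome assembly. The copy lies on chromosome 9 from 50344201 to 50344968 (minus strand); it is annotated as protein-coding, its coding sequence is identical to that of Rpl10, and 96.2% of its 31-base words occur in Rpl10. It had 8596, 3282 and 6457 counts in the high and 8642, 11331 and 14072 in the low libraries, or 439, 205 and 325 CPM against 499, 604 and 548 CPM, so that all low libraries lay above all high ones. The means were 323 ± 117 and 551 ± 52.5 CPM (SD, n = 3), and the difference did not pass (log2 fold change -0.77, SE 0.33, edgeR adjusted p = 0.360). Rpl10 had 12052, 4657 and 9799 counts against 9272, 9401 and 18341, with a log2 fold change of -0.32 (adjusted p = 0.717).

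The largest swings within a group came from the Rps2 family. Rps2 encodes a small subunit protein near the mRNA entry, and 4 of its pseudogenes were members. Rps2 had 10064, 11879 and 9852 counts in the high libraries but 23, 14125 and 117 in low replicates 1, 2 and 5. Rps2-ps10, a transcribed processed pseudogene, had 9336, 25 and 145 counts in the high and 393, 25 and 27499 in the low libraries. Rps2-ps13, on chromosome X from 52898588 to 52899469 (plus strand), had 3, 0 and 0 counts in the high and 6389, 0 and 7 in the low libraries. The 2 libraries with almost no Rps2 were thus the ones where 1 copy held nearly all counts. In low replicate 1 Rps2-ps13 held 99.6% of the counts of itself and Rps2 (95% Wilson interval 99.5 to 99.8%). In low replicate 5 Rps2-ps10 held 99.6% of the counts of itself and Rps2 (99.5 to 99.6%). In high replicate 1 Rps2 and Rps2-ps10 had similar counts, and Rps2-ps10 held 48.1% of the pair (47.4 to 48.8%).

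Summed over Rps2 and its 4 pseudogenes, the family had 993, 743 and 503 CPM against 393, 755 and 1077 CPM. In this sum low replicates 1 and 5 were the lowest and the highest, and the groups overlapped. The larger of the 2 within-group ranges, highest over lowest library with values under 3 counts set to 3, fell from 567-fold for Rps2 alone to 2.74-fold for the sum. The log2 fold change of Rps2 was 1.21 (SE 1.88, edgeR adjusted p = 0.808) and that of the sum was 0.01 (adjusted p = 0.995). Rps2-ps10 gave -1.17 (SE 2.43, adjusted p = 0.857), and without low replicate 5 it was 3.75. Without low replicate 2 the value of Rps2 was 7.62, when the remaining low libraries had 23 and 117 counts; without low replicate 1 or low replicate 5 it was 0.63, and with limma voom 5.16. Rps2-ps13 differs from the Rps2 coding sequence by 7 bases and holds an open frame of full length. The stretch around coding position 300 is shown because it occurs in Rps2-ps13 and in no other gene of the table, whereas the version of Rps2 is shared with 11 other genes, Rps2-ps10 among them (Rps2-ps13, chrX:52898857-52898917, plus strand; Rps2, coding bases 270 to 330, chromosome 17). The capital marks the difference.
Rps2-ps13: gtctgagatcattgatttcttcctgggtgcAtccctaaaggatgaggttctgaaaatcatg
Rps2: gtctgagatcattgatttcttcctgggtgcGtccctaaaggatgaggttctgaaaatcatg

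Rpsa-ps10 was nearly absent from 1 library. Rpsa encodes a small subunit protein that also serves as a laminin receptor. Its copy lies on chromosome 3 from 150072658 to 150073542 (minus strand) and differs by 6 bases. Rpsa-ps10 had 10554, 3269 and 83 counts in the high and 8607, 11029 and 12395 in the low libraries. High replicate 4 was the exception, with 4.17 CPM against 204 to 588 CPM in the other 5 libraries. Rpsa had 9480, 6982 and 14141 counts in the high and 6299, 5719 and 22303 in the low libraries. Neither passed (log2 fold change of Rpsa-ps10 -1.07, SE 1.24, edgeR adjusted p = 0.736; of Rpsa 0.08, SE 0.47, adjusted p = 0.949). The value of Rpsa-ps10 was -2.37 without high replicate 1, -0.51 without high replicate 4 and -2.75 with limma voom. With its 3 pseudogenes added, the log2 fold change of Rpsa was -0.38, and its within-group range went from 2.85-fold to 1.60-fold.

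**Figure D3:**
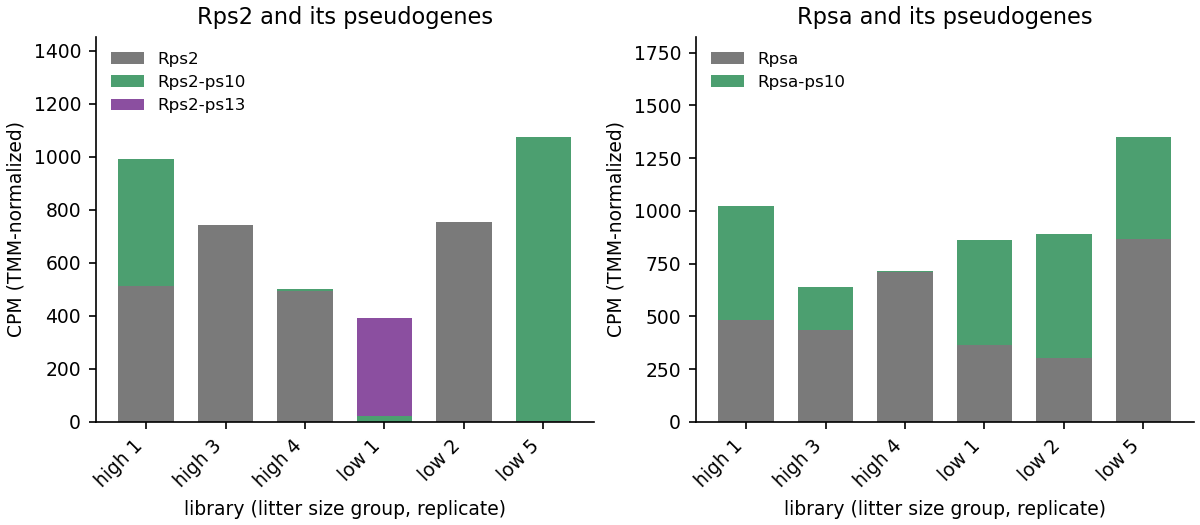
Levels in CPM of Rps2 with Rps2-ps10 and Rps2-ps13, and of Rpsa with Rpsa-ps10, stacked for each of the 6 libraries; the smallest members of both families are not drawn. The stacked heights vary less between libraries than the pieces: Rps2 is close to 0 in low replicates 1 and 5, and Rpsa-ps10 in high replicate 4.

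Rpl34 and Rps26 also had libraries in which the copy was near 0. Rpl34 encodes a large subunit protein, and Rpl34-ps1 (chromosome 6, 71124610 to 71124963, plus strand) has an open frame of full length. Rpl34-ps1 had 1975, 11 and 1884 counts in the high and 965, 1233 and 2606 in the low libraries. Rpl34 had 643, 3427 and 560 counts in the high and 570, 539 and 1008 in the low libraries. In high replicate 3, then, the parent held nearly all counts of the pair, and in the other 5 the copy held more than the parent. The log2 fold change of Rpl34 was 1.44 (SE 0.79, edgeR adjusted p = 0.458), and without high replicate 3 it was -0.14. That of Rpl34-ps1 was -0.18, and without high replicate 3 it was 0.39. The larger within-group range was 7.60-fold for Rpl34 alone and 1.74-fold for the family.

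The 2 genes differ at coding positions 132 and 318. The first stretch is shown as 1 of the 2 places in the coding sequence where a read can separate Rpl34-ps1 from Rpl34. It lies at chr6:71124711-71124771 (plus strand) in Rpl34-ps1 and at coding bases 102 to 162 in Rpl34 (chromosome 3). Reads over these places were not examined in any library. The capital marks the difference, and the version of Rpl34-ps1 also occurs in Rpl34-ps2 and Gm10154.
Rpl34-ps1: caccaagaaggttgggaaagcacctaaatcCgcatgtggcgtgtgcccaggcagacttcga
Rpl34: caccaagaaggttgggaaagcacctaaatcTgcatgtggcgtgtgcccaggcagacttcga
Rps26 encodes a small subunit protein near the mRNA exit. Rps26-ps1, a transcribed processed pseudogene in an intron of Wwp2 (chromosome 8, 107439131 to 107439579, minus strand), had 1298, 514 and 18 counts in the high and 0, 1471 and 2010 in the low libraries. Rps26 had 5060, 1842 and 5481 counts in the high and 5858, 1539 and 7700 in the low libraries. The copy was thus near or at 0 in high replicate 4 and low replicate 1 and close to its parent in low replicate 2. The within-group range was 4.12-fold for Rps26 and 2.36-fold for the sum. The stretches around coding position 270 are shown because each occurs in its own gene alone among the genes of the table, so reads over the capital letter are specific to 1 of the 2 (Rps26-ps1, chr8:107439263-107439323, minus strand; Rps26, coding bases 240 to 300, chromosome 10).
Rps26-ps1: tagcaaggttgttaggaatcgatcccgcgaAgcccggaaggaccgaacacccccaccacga
Rps26: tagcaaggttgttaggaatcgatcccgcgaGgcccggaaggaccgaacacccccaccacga

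Of the remaining large members, 3 more had libraries at 0 beside libraries with at least 170 counts. Rpl14-ps1 (chromosome 7, in an intron of Trpm4, 45324965 to 45325617) had 2263, 659 and 59 counts in the high and 0, 1633 and 1722 in the low libraries. Its parent Rpl14, a large subunit gene, had 8529, 3962 and 6493 against 6118, 6122 and 13562. Rpl15-ps3, a copy of a large subunit gene named after its values were seen, had 600, 0 and 1580 counts in the high and 0, 0 and 851 in the low libraries. Rpl10a-ps1, likewise named after its values were seen, had 170, 0 and 2207 counts in the high and 0 in all 3 low libraries. It did not pass the filter on low counts, and the single count total of high replicate 4 made up most of it.

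The parents of Rpl14-ps1, Rpl15-ps3 and Rpl10a-ps1 had counts in every library. Rpl15 had 4244 to 13399 counts per library and Rpl10a 4431 to 16436. Over the 15 members with more than 2000 counts, 8 had a within-group range over 10-fold, 2 of which, Rps2-ps13 and Rpl10a-ps1, were not tested. Among tested genes, such a range was found in 7 of 18 pseudogenes (38.9%), in 1 of 33 parents, Rps2, and in 6.58% of all genes, given as a description. For the 33 families, each a parent with its members summed, the median range was 2.12-fold for the parent alone and 2.01-fold for the sum. Summing narrowed the range in 19 families, widened it in 13 and left it the same in 1. It widened from 1.76-fold to 1.91-fold for Rpl14, from 1.79-fold to 1.90-fold for Rpl15 and from 2.12-fold to 2.15-fold for Rpl10a. A parent alone exceeded 4-fold in 3 families (Rps2, Rpl34 and Rps26), and the sum in 0, with 3.66-fold as the widest, for Rps24. These range limits were chosen after the values were seen.

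**Figure D4:**
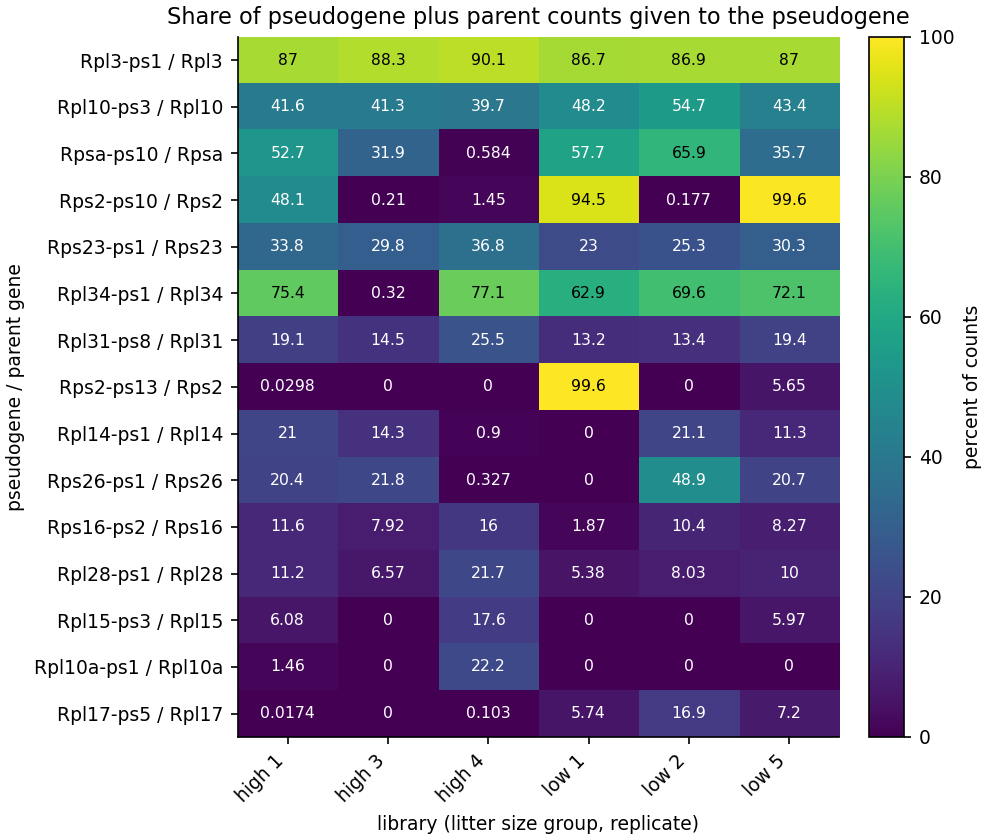
Percent of the counts of a pseudogene and its parent that was assigned to the pseudogene, for the 15 members with more than 2000 counts (rows) in each of the 6 libraries (columns). Rows such as Rpl3-ps1 are even across libraries, while Rps2-ps10, Rps2-ps13, Rpsa-ps10 and Rpl34-ps1 hold libraries near 0 beside libraries with most of the pair.

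Some large members were counted in every library. Rps23-ps1, a copy of the small subunit gene Rps23 on chromosome 3 (37714740 to 37715164), had 3027, 1188 and 2095 counts in the high and 1191, 1400 and 3593 in the low libraries. Rps23 had 5930, 2794 and 3598 counts against 3993, 4135 and 8283. Rpl31-ps8, a copy of the large subunit gene Rpl31 on chromosome 15 (90764279 to 90764656), had 1743, 510 and 1179 counts against 615, 703 and 2392. The log2 fold changes were 0.24 (SE 0.38) for Rps23-ps1 and 0.12 (SE 0.51) for Rpl31-ps8. Rps16-ps2, a copy of the small subunit gene Rps16, had 1012, 333 and 1087 counts against 108, 649 and 1162. All 3 overlapped between the groups. Of the counts of the pair, Rps23-ps1 held from 23.0% in low replicate 1 (95% Wilson interval 21.9 to 24.1%) to 36.8% in high replicate 4 (35.6 to 38.1%). The share of Rpl31-ps8 ran from 13.2% in low replicate 1 (12.2 to 14.2%) to 25.5% in high replicate 4 (24.3 to 26.8%). That of Rps16-ps2 varied more, from 1.87% in low replicate 1 (1.55 to 2.25%) to 16.04% in high replicate 4 (15.2 to 16.9%).

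Rpl31-ps8 and Rps16-ps2 are identical to their parent over its whole coding sequence, and Rps23-ps1 over the 425 bases it covers of 432. All 31-base words of these 3 occur in the parent, so no such word of the copy tells it from the parent. The shares of these pairs thus rest on how reads were divided between copy and parent, which their intervals do not cover. Rps23-ps1 also overlaps an exon of the protein-coding gene Gm5148 on the opposite strand, and 368 of its 395 words occur in Gm5148. The counts of Gm5148 are not given here, and its part in the counts of Rps23-ps1 was not tested. The stretch of Rps16-ps2 at chr5:129128288-129128348 (minus strand) is shown as an example without a capital letter; it equals coding bases 170 to 230 of Rps16 on chromosome 7 and also occurs in Gm8623.
Rps16-ps2: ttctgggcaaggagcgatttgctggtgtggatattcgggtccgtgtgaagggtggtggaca

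The ratio of each tested pseudogene to its parent was compared between groups on the log2 scale, with 0.5 counts added, for 17 pairs. The groups did not overlap in 2. For comparison, the groups did not overlap in the CPM values of 19.5% of all tested genes, and no such share was computed for ratios. The ratio of Rpl3-ps1 to Rpl3 was higher in the high libraries by 0.23 (exact two-sided permutation p = 0.1, adjusted p = 0.523). That of Rpl10-ps3 to Rpl10 was lower by a log2 difference of -0.46 (exact permutation p = 0.1, adjusted p = 0.523). With 3 samples against 3, 0.1 is the smallest p this test can give, so no pair could pass.

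Rpl26-ps6 differed from the large members in its sequence. Rpl26 encodes a large subunit protein, and Rpl26-ps6 (chromosome 9, 43217122 to 43217555, plus strand) was 90.1% identical to it, with 0 words of 31 bases in common and 81.7% of its words found in it alone. It had 27, 23 and 31 counts in the high and 11, 22 and 31 in the low libraries. On the CPM scale these were 1.38, 1.44 and 1.56 against 0.635, 1.17 and 1.21, so that the high libraries lay above the low ones by a small margin (log2 fold change 0.53, SE 0.43, edgeR adjusted p = 0.624). Rpl26 had a log2 fold change of -0.01. Over the whole alignment the pair had 40 base differences and 3 gap bases, and its longest identical run was 29 bases. The stretch at chr9:43217291-43217351 is shown with that of Rpl26 (coding bases 170 to 230, chromosome 11), with the 2 differing bases in capitals. It holds an identical run of that longest length, so it does not show how far the pair differs as a whole.
Rpl26-ps6: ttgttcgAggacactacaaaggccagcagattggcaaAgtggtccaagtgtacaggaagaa
Rpl26: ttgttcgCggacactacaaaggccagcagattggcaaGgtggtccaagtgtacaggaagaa

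Some members cannot be told from each other. Rpl35a-ps2, Rpl35a-ps3, Rpl35a-ps4 and Rpl35a-ps6, named after their values were seen, are copies of the large subunit gene Rpl35a with 1 and the same sequence. Each was given 89, 43 and 0 counts in the high and 0, 0 and 1 in the low libraries, and so was Gm10243, which shares the sequence. They are 1 measurement, not 4. Rpl35a had 3888, 1863 and 4683 counts in the high and 3900, 4363 and 8819 in the low libraries. The difference is at coding position 156 (Rpl35a-ps2, chr1:181242135-181242195, minus strand; Rpl35a, coding bases 126 to 186, chromosome 16), in capitals.
Rpl35a-ps2: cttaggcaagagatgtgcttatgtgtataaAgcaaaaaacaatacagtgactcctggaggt
Rpl35a: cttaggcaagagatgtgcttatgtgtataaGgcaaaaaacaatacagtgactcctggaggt

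The 50 members below the large ones were mostly near the limit of detection. Of all 65, 39 had at most 100 counts in the 6 libraries together. Libraries held between 2 and 25 members at 0, with 2, 14 and 9 in the high and 25, 15 and 2 in the low group. Rps19-ps6, named after its values were seen, had 4, 3 and 0 counts in the high and 7, 273 and 13 in the low libraries, and was not tested. Rps24-ps3, chosen likewise, had 59, 1 and 0 against 0, 141 and 4. Its values were spread over both groups. Rps18-ps3, chosen likewise, had 141, 52 and 89 counts against 72, 124 and 224.

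As a group, the members were closer to their parents than the candidates below the threshold. Since the threshold was on counts, this is a description. The median identity with the parent's coding sequence, over the bases that align, was 99.3% over the 65 members and 94.8% over the 233 of 235 other candidates that could be aligned. Of the members, 36 had an identity of 99% or more and 7 were identical over the aligned bases, against 20 and 7 of the other candidates. The share of 31-base words found in no other gene had a median of 8.17% in members and 49.3% in other candidates. In the 15 members with more than 2000 counts the median was 0, with a highest value of 14.6%, and in the other 50 members it was 15.3%. By count, 16 of the 65 members had no such word, against 21 of the 235. An open frame of at least 95% of the parent's coding length was present in 36 members and in 75 other candidates.

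**Figure D5:**
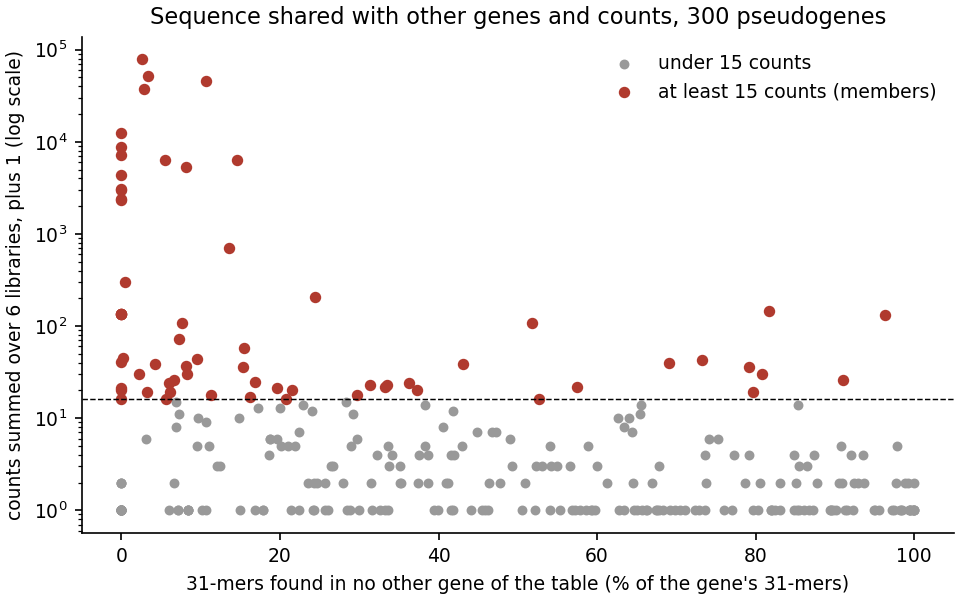
Percent of 31-base words found in no other gene of the table against the summed count plus 1 of each of the 300 candidates (log axis), with a dashed line at the count threshold. All 15 candidates with more than 2000 counts have at most 14.6% of such words, while candidates below the threshold cover the whole range from 0 to 100%.

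By annotation (GENCODE M21, GRCm38), 60 members are processed pseudogenes, 3 are transcribed processed pseudogenes and 2, Rpl10-ps3 and Rpl9-ps6, are protein-coding. They lie on 19 chromosomes, with 8 on chromosome 8 and 7 on chromosome X, and 64 of 65 have a single exon. No other gene overlaps 40 of them. Another 21 lie in an intron and 4 overlap an exon, and for these the overlapped gene runs on the opposite strand in 18, on the same in 6 and on both in 1. In 2 members no 31-base word occurs in the parent: Rpl26-ps6 and Rps7-ps2. Rps7-ps2, with 15 counts, was 53.3% identical to Rps7 and shared most words, 33.1%, with Odc1, which encodes ornithine decarboxylase of polyamine synthesis.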

How the data were processed

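Per the submitters' processing notes, the authors used Trim Galore, kallisto, DESeq2 and GRCm38; versions and the annotation release are not given in the sources used here. The deposited values are whole-number counts per gene, read here as kallisto estimates after rounding, though no source says so. kallisto divides reads among similar transcripts, so counts of near-identical copies are uncertain. Symbols and GENCODE M21 transcripts were found for 35869 of 36727 genes. A parent is the gene named before -ps. Counts were kept by filterByExpr (minimum count 10, minimum total 15; 16455 genes), TMM-scaled and tested across all genes in R 4.3.3 with edgeR 4.0.16, quasi-likelihood test (contrast of high against low, all 6 libraries, no covariate, Benjamini-Hochberg 0.05, common dispersion 0.219). The SE is the log2 fold change over the square root of F. DESeq2 1.42.0 and limma voom 3.58.1 were alternatives. On simulated counts with a 4-fold change in 200 of 16188 genes, edgeR recovered 47% of them for this comparison, with 7 false calls. With 16-fold changes (16225 genes) it recovered 96.5%, with 11 false calls. The simulation took its dispersion from the trend over all genes. The 18 tested pseudogenes had a median within-group range of 5.42-fold, against 2.03-fold for all tested genes. The recovery rates therefore need not hold for the pseudogenes. Words of 31 bases, on either strand, were compared over all transcripts of the table's genes; identities are from edlib 1.3.9.post1 alignments to the parent's coding sequence. No protein sequences were used.

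Members and lists were chosen with earlier results of these data known. Named are Rpl17-ps5, the 10 members of highest summed count, members that passed or, if tested, did not overlap between groups, those at the threshold, and their parents; others were chosen after their values were seen. Alternatives were other tests, scalings, filters and thresholds, members added to parents, and each library left out. Plots used Python 3.11.15, pandas 2.3.3 and matplotlib 3.10.9.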

Additional observations from a re-analysis of the deposited data

How the results depend on the processing

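No paired analysis was possible because no label links a high sample to a low one. Over all 16455 genes edgeR's quasi-likelihood test called 1, DESeq2 1026, limma voom 3, edgeR's likelihood ratio test 631 and scaling by library size alone 2, and leaving out 1 library gave 0 to 1; the cause was not tested. For pseudogenes other than Rpl17-ps5, for parents and for cytosolic ribosomal protein genes, the number called was 0 in every setting run, and the parents' median log2 fold change stayed negative, from -0.53 to -0.03 with 1 library left out. Adding members to their parent leaves no value for the members themselves. Pairs whose ratio did not overlap numbered 2, and 2 to 9 with 1 library left out, where fewer samples overlap less often. The summed share of members, high minus low, was -3.94 percentage points of members plus parents, -6.64 at a summed count of at least 60, and -5.65 to -2.40 with 1 library left out. The Rpl17-ps5 ratio of 207 ran from 147 to 664.

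With 1 library left out, the log2 fold change ran from -0.41 to 0.15 for Rpl3-ps1 (0.09 without low replicate 5), from -6.36 to 3.75 for Rps2-ps10, from -0.62 to 0.39 for Rpl34-ps1 (0.11 without low replicate 5), from -0.14 to 1.83 for Rpl34 and from -0.11 to 0.48 for Rpl17. For Rpsa it ran from -0.19 (without high replicate 4) to 0.70, with -0.12 without low replicate 1 and -0.18 without low replicate 2, and it was -0.38 with its members added. The causes were not tested. Rpl10-ps3 stayed between -1.06 and -0.53 and Rpl26-ps6 between 0.29 and 0.68. For Rpsa-ps10 it ran from -2.37 to -0.51 and for Rps2 from 0.63 to 7.62. At 15 to 100 summed counts, as 39 members had, a library holds few counts per gene, which limits the precision.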

Other observations

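Some genes outside the -ps names share 31-base words with a member, and all were named after their values were seen. Their part in the counts of the members was not tested. Rps18, a small subunit gene, had only 322, 149 and 145 counts in the high and 499, 375 and 409 in the low libraries. Gm10260 had 12571, 4277 and 7448 against 7419, 7505 and 18031 counts, and Gm11361, which shares 81.5% of the 31-base words of Rps18-ps3, had 1108, 369 and 772 against 491, 598 and 1611. The log2 fold change was -0.97 for Rps18, -0.25 for Gm10260 (edgeR adjusted p = 0.816) and -0.05 for Gm11361 (adjusted p = 0.968). Rpl30-ps9 had 22, 0 and 0 against 0, 0 and 7 counts, and Gm12191 had 860, 304 and 1 against 0, 1 and 0.

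Pseudogenes identical to their parent over the aligned bases had either many counts or none. Of the 14 candidates identical to their parent's coding sequence over these bases, 7 were members with 2377 to 52380 counts. The other 7, Rpl10-ps1, Rpl27-ps3, Rpl36a-ps2, Rpl38-ps2, Rps12-ps3, Rps13-ps2 and Rps6-ps4, had 0 counts in every library.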
